A study of Mus musculus with 6 samples.

Results

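Hedgehog signaling was followed through 9 genes in C2C12 cells, a mouse myoblast line that fuses into myotubes when serum is lowered. The genes were *Hhip*, *Ptch1*, *Cdon*, *Boc*, *Gas1*, *Smo*, *Gli1*, *Gli2* and *Gli3*, 9 of the 54525 genes counted. They were taken by symbol, and partly because *Hhip* was nearly lost after differentiation. The levels of the 9 genes at D0 and D5 are therefore a description, and no p-value is given for them. RNA was sequenced from wild-type, untreated C2C12 cells in 2 groups, myoblasts at day 0 (D0, n = 3) and myotubes after 5 days of differentiation (D5, n = 3). The groups differed in the medium as well as in time, since myoblasts were grown in fetal bovine serum and myotubes in a lower share of horse serum. All 6 samples are of this 1 line, and the labels do not say whether the samples of a group were grown as separate cultures, so the spread between them may be partly technical. Summed over genes, D0 libraries had 36555048 to 40895840 counts, and D5 libraries, which were shallower, 25449759 to 25811300.

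Hedgehog ligands are secreted lipid-modified proteins that bind the receptor Ptch1. Without ligand, Ptch1 holds the membrane protein Smo inactive, and the Gli factors, Gli3 above all, are cut into repressors. With ligand, Smo enters the primary cilium and the Gli factors act as activators. *Ptch1*, *Hhip* and *Gli1* are themselves common transcriptional targets of the pathway. Cdon, Boc and Gas1 bind ligand together with Ptch1, while Hhip binds ligand without passing on a signal. In muscle, Hedgehog signals from neighbouring tissue act on myogenic precursors of the embryo, and Cdon and Boc also act at contacts between myoblasts, where they sit in a complex with cadherins.

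The starting material matched its labels. All 3 myoblast markers examined (*Myod1*, *Myf5* and *Pax7*) fell at D5 and all 6 myotube markers rose, with *Myh3*, embryonic myosin heavy chain, 11.44 higher on the log2 scale (adjusted p = 1.6e-40, edgeR's quasi-likelihood test with Benjamini-Hochberg adjustment). All 5 proliferation genes fell, and their summed level went from between 1702 and 1717 CPM (counts scaled by library size) at D0 to between 89.2 and 99.2 CPM at D5. Of 12 markers of other cell types, 6 were at or under 3 counts in every library and the cartilage and macrophage genes *Acan* and *Adgre1* were at 0. The summed level of these 12 was between 71.0 and 73.6 CPM at D0 and between 100 and 104 CPM at D5, with *Pdgfra*, a receptor of fibroblast-like cells, at 1.04 ± 0.151 CPM (SD, n = 3) at D0 and 23.9 ± 1.77 CPM at D5. *Sox9*, also a cartilage gene, made up most of the sum, at 51.7 ± 2.31 CPM at D0 and 69.4 ± 1.10 CPM at D5. *Pparg*, a gene of fat cells, went from 18.9 ± 0.949 to 7.845 ± 0.777 CPM. The part of proliferation and of other cell types in the values below was not tested. In bulk RNA, fewer cells of a kind and less RNA per cell cannot be told apart.

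The 9 genes did not move as a block. CPM are given with edgeR's TMM factors, which set the libraries to a common scale. At an adjusted p threshold of 0.05 in edgeR's quasi-likelihood test, 5 of the 9 were called lower at D5 (*Hhip*, *Ptch1*, *Cdon*, *Smo* and *Gli3*), while 40.8% of the 16290 genes tested were. The other 4 (*Gas1*, *Boc*, *Gli1* and *Gli2*) were called higher, while 42.2% of all genes were. In the same 5 genes every D5 library was under every D0 library in CPM, which held for 41.1% of genes tested, and in the same 4 every D5 library was above, which held for 42.2%. Nothing is read from these counts, since the genes were chosen on this contrast. *Gli2* passed the filter on low counts only through its D5 libraries, and *Hhip* only through its D0 libraries. The median log2 fold change of the 9 was -0.22, against 0.0022 over all genes tested.

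**Figure D1:**
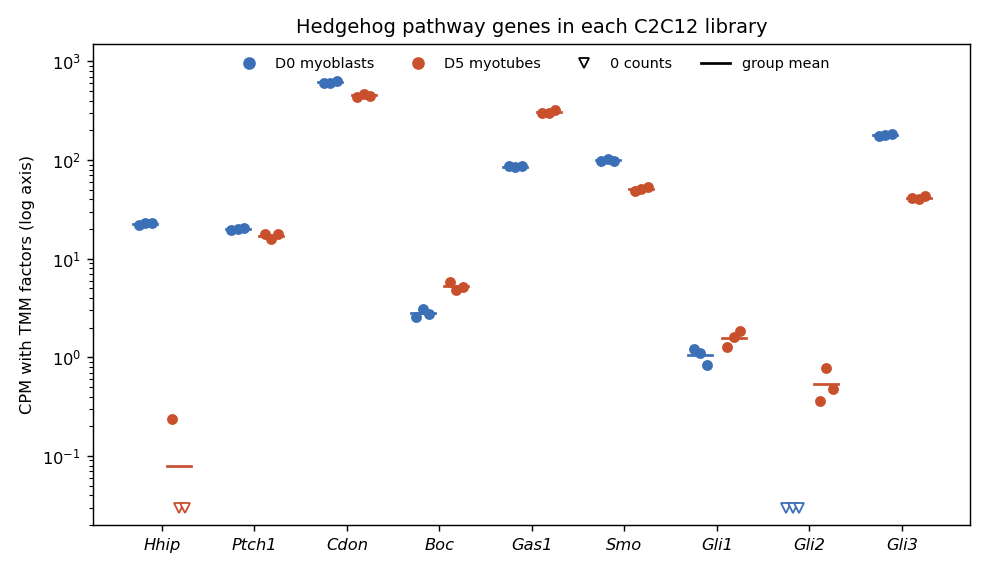
CPM (log axis) of the 9 Hedgehog pathway genes in each of the 3 D0 libraries (blue) and the 3 D5 libraries (orange), with a bar at each group mean and open triangles for libraries with 0 counts. *Hhip* had counts in 1 D5 library and *Gli2* in no D0 library, while the other 7 genes were detected in all 6 libraries.

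**Figure D2:**
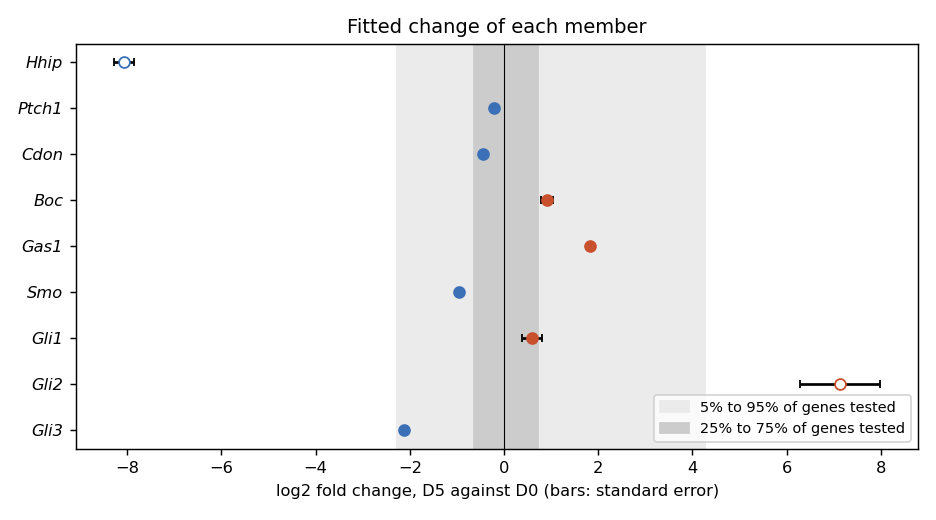
Fitted log2 fold change of each gene, D5 against D0 (bars are standard errors and are hidden by most points). Blue points are lower and orange points higher at D5, the shaded bands hold 5% to 95% and 25% to 75% of the 16290 genes tested, and the open points of *Hhip* and *Gli2* are fitted values that rest on groups with libraries at 0. *Hhip* and *Gli2* lie outside the wider band on opposite sides.

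*Hhip*, the decoy receptor of the family, was the gene with the clearest loss. *Hhip* (ENSMUSG00000064325.4) lies on the minus strand of GRCm38 at chr8:79965851-80058006. Myoblast libraries gave it 827, 964 and 917 counts, or 22.1, 22.9 and 22.8 CPM. At D5 it had 6 counts in replicate 1, or 0.239 CPM, and 0 counts in replicates 2 and 3. The D0 libraries lay close together and far above all D5 libraries, so the trace that was left came from 1 library.

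The mean *Hhip* level at D5 (0.0796 ± 0.138 CPM, SD, n = 3) was 0.352% of that at D0 (22.6 ± 0.453 CPM). In D5 replicate 1 alone it was 1.06% of the D0 mean. Without that library *Hhip* was at least 186-fold lower at D5, taking 3 counts per library as the limit of detection. The fitted log2 fold change was -8.07 ± 0.21 (SE) with all libraries and -12.58 without D5 replicate 1, and both depend on the small count that the fit adds to libraries at 0. Among all genes tested, 0.0368% had a lower log2 fold change. The limit of 3 counts covers counting error only.

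The genes closest to *Hhip* in log2 CPM over the 6 libraries were *Tspan18*, *Ptprn*, *Igsf9*, *Gm12406* and *Kcnmb1*. Their Euclidean distances to *Hhip* ran from 2.92 for *Tspan18*, a tetraspanin, to 3.59 for *Kcnmb1*, a subunit of a calcium-activated potassium channel, against a median distance of 13.5 over the other 16289 genes. *Tspan18* had 698, 812 and 789 counts at D0 and 1, 4 and 3 at D5. *Kcnmb1* had 394, 419 and 430 counts at D0 and 0, 3 and 2 at D5. All 5 were counted 256 to 1016 times per library in myoblasts and at most 6 times in myotubes. They were picked for closeness to *Hhip* in these same libraries, so this shared pattern is set by the choice.

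Bases upstream of *Hhip*, the gene nearly lost, and of *Gas1*, which had the largest rise of the 7 members detected in all libraries, are shown. They are from the RefSeq promoter table (GRCm38.p6), which matched 7 of the 9 genes, and are written 5′ to 3′ on the strand of the gene with each CG pair in capitals. The *Hhip* stretch is chr8:80058061-80058258, minus strand, and the *Gas1* stretch is chr13:60177536-60177785, minus strand. Both lie upstream of every annotated start of the gene, so that the *Hhip* stretch leaves out the last bases before the RefSeq start and is 198 bases long.
Hhip: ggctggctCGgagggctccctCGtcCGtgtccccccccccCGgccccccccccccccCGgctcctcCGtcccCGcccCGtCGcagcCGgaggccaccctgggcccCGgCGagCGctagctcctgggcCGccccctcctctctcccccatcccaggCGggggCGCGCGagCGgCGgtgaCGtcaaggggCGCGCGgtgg
Gas1: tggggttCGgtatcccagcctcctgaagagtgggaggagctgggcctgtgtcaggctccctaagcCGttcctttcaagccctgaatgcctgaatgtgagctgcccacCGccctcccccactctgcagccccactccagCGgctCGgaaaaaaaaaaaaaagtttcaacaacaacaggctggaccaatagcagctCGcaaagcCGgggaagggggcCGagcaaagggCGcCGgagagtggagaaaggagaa
The *Hhip* stretch held 24 CG pairs in 198 bases, and that of *Gas1* 10 in 250 bases. Over the full windows of 300 bases, GC content was 73.7% for *Hhip*, higher than in 94.9% of all windows, and 62.3% for *Gas1*, against a median of 52.7%. Whether GC content goes with the direction of change was not tested. The windows of *Cdon* (chr9:35451826-35452125), *Ptch1* (chr13:63565686-63565985) and *Gli3* (chr13:15463473-15463772) lie inside the gene positions given below, past the outermost start. *Ptch1*, which differed least, had 76.3% GC and 47 CG pairs, above the 30 pairs of *Hhip*, *Gli3* had 71% and 39, *Gli2*, higher at D5, had 67.3% and 28, *Smo* had 67.7% and 17, and *Cdon*, lower at D5, had 44.7% and 3. A search of both strands of the 7 windows for TGGGTGGTC, the Gli consensus, found no match, and 0.253% of 32851 windows of the same length held it. Its last 8 letters, GGGTGGTC, which overlap the first motif, were found in none of the 7 windows and in 0.807% of all. The E-box CAGCTG, bound by myogenic factors and added after the values were seen, was in none of the 7 and in 16.3% of all windows. These matches concern the letters of short windows only. Those of *Cdon*, *Ptch1* and *Gli3* and, by the RefSeq positions, that of *Gli2* are not at the outermost annotated start.

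*Ptch1*, the receptor and a common read-out of the pathway, differed little. *Ptch1* (ENSMUSG00000021466.12, chr13:63508328-63573598, minus strand) was at 19.4, 19.9 and 20.2 CPM at D0 and at 17.6, 15.9 and 17.8 CPM at D5. The D5 libraries were all lower, and the highest of them was close to the lowest of D0. The fold was 1.16 lower and the log2 fold change -0.22 ± 0.059 (SE), and 40.5% of genes tested had a lower value. Where libraries were scaled to their ERCC spike-ins, synthetic RNAs added to the samples in amounts that are not given in the sources used here, the call of *Ptch1* was lost and the log2 fold change was -0.81, with the median of all genes at -0.58. Per length, in TPM (transcripts scaled to gene length and library size), *Hhip* stood at 1.78 ± 0.0220 times the level of *Ptch1* at D0 (SD, n = 3). At D5 this ratio was 0.0212 in replicate 1 and 0 in the other libraries. The gene for the decoy thus went from above the receptor to near 0 while the receptor kept most of its level.

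*Cdon* and *Gas1*, 2 of the 3 co-receptors, were the most abundant of the 9 genes in TPM and changed order on that scale. In CPM, which is not scaled to length, *Cdon* stayed above *Gas1* in both groups. *Cdon* (ENSMUSG00000038119.15, chr9:35421128-35507652, plus strand), an immunoglobulin-family receptor that promotes myogenesis, was at 601, 610 and 631 CPM at D0. It was at 436, 470 and 447 CPM at D5. All D5 libraries were lower and the replicates were close. The fold was 1.36 lower and the log2 fold change -0.45 ± 0.034 (SE).

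*Gas1* (ENSMUSG00000052957.8, chr13:60174405-60177365, minus strand), a membrane-anchored co-receptor first known as a gene of growth-arrested cells, was far higher in myotubes. Its level was 86.2, 84.0 and 87.2 CPM at D0 and 297, 298 and 322 CPM at D5. The groups were far apart, with D5 replicate 3 the highest. The fold was 3.56 and the log2 fold change 1.83 ± 0.036 (SE), above 88.5% of genes tested. On the opposite strand *Gm48488* overlaps 19.9% of the exonic bases of *Gas1*. The strand setting of the counting is not given in the sources used here, and *Gm48488* had at most 47 counts in a library.

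*Boc* (ENSMUSG00000022687.12, chr16:44485049-44558897, minus strand), the close relative of Cdon, was at a far lower level. It was at 2.53, 3.07 and 2.78 CPM at D0 and at 5.81, 4.87 and 5.14 CPM at D5, from 95 to 129 counts per library at D0 and 120 to 146 at D5. All D5 libraries were higher, and D5 replicate 1 was the highest. The fold was 1.89 and the log2 fold change 0.91 ± 0.13 (SE). *Cdon* and *Boc*, which share partners at cell contacts, thus went opposite ways, but with ERCC scaling the calls of both were lost, at log2 fold changes of -0.999 and 0.32.

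Per length, *Cdon* led the co-receptors at D0 and *Gas1* led them at D5. *Cdon* gave 72.9% ± 0.411 of their summed TPM at D0 (SD, n = 3) and 35.9% ± 1.46 at D5. *Gas1* gave 26.5% ± 0.452 at D0 and 63.4% ± 1.45 at D5, and *Boc* 0.575% ± 0.0557 and 0.729% ± 0.0842. The TPM of *Gas1* over that of *Cdon* was 0.374, 0.359 and 0.360 in the D0 libraries. At D5 it was 1.77, 1.65 and 1.87. The order was reversed in every library, and a ratio taken within a library does not depend on how libraries are scaled. The summed level of the 3 co-receptors was 378 ± 13.4 TPM at D0 and 505 ± 11.04 TPM at D5. Unlike the ratio, this sum does depend on how libraries are scaled. With ERCC scaling the log2 fold change was 1.25 for *Gas1* and -0.999 for *Cdon*. *Cdon* stood 128 ± 11.4 times above *Boc* at D0 and 49.8 ± 6.21 times at D5.

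**Figure D3:**
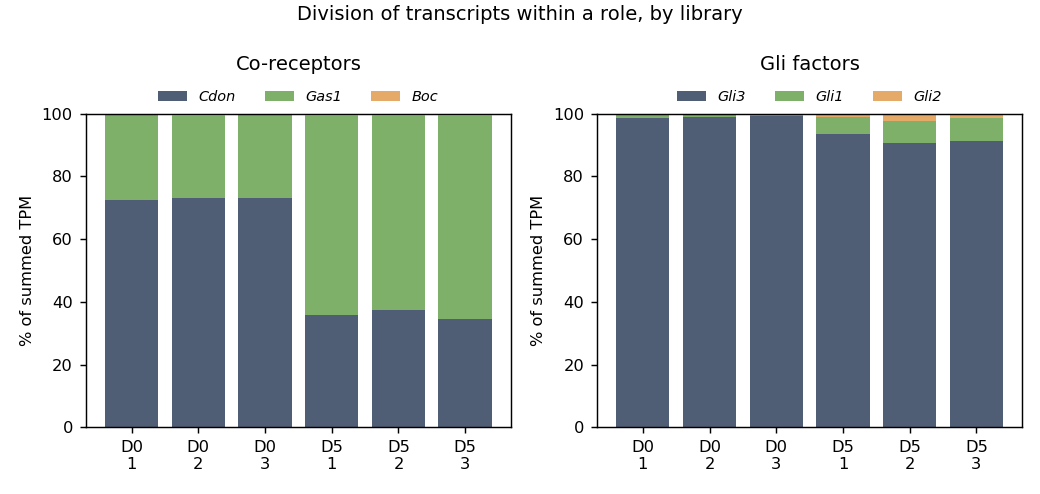
Share (% of summed TPM) of each co-receptor (left) and each Gli factor (right) in each library, as stacked bars from 0 to 100%. *Cdon* made up 72.4% to 73.1% of the co-receptor sum at D0 and 34.6% to 37.5% at D5, and *Gli3* stayed above 90% of the Gli sum in all 6 libraries.

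*Smo*, the membrane protein that Ptch1 restrains, was lower in myotubes. *Smo* (ENSMUSG00000001761.7, chr6:29735503-29761365, plus strand) was at 98.2, 103 and 97.2 CPM at D0 and at 48.7, 51.1 and 52.9 CPM at D5. The groups did not overlap and the replicates were close. The fold was 1.95 lower and the log2 fold change -0.97 ± 0.040 (SE), and 16.6% of genes tested had a lower value. The TPM of *Smo* over that of *Ptch1* was 12.7 ± 0.469 at D0 (SD, n = 3) and 7.54 ± 0.565 at D5, so that the transcripts of the signal transducer outnumbered those of its receptor in both groups.

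Among the Gli factors, which carry the signal to the genome, *Gli3* made up nearly all transcripts and had the second largest drop of the 9 genes. *Gli3* (ENSMUSG00000021318.15, chr13:15463235-15730026, plus strand), the main repressor of the family, was at 175, 180 and 184 CPM at D0 and at 41.3, 40.1 and 43.3 CPM at D5. All D5 libraries were near one another and far under D0. The fold was 4.33 lower and the log2 fold change -2.11 ± 0.039 (SE), and 5.65% of genes tested had a lower value.

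*Gli1* (ENSMUSG00000025407.7, chr10:127329882-127341974, minus strand), an activator and the usual target gene of the pathway, was near the limit of what these libraries can resolve. It had 46, 46 and 34 counts at D0 and 32, 40 and 46 at D5, or 1.23, 1.09 and 0.844 CPM against 1.27, 1.62 and 1.85 CPM. In CPM the highest D0 library and the lowest D5 library were almost equal. In TPM the groups overlapped, with D0 replicate 1 at 0.836 and D5 replicate 1 at 0.809. The fold was 1.499 and the log2 fold change 0.59 ± 0.21 (SE). The call of *Gli1* was lost without D0 replicate 3 (log2 fold change 0.44), without D5 replicate 3 (0.46) and with DESeq2 (0.58), and with ERCC scaling its sign was reversed at -0.03. The genes *Arhgap9* and *Gm47200* overlap 6.55% of its exonic bases on the opposite strand, with at most 14 counts in a library for *Arhgap9*.

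*Gli2* (ENSMUSG00000048402.14, chr1:118834132-119053619, minus strand), the main activator in many tissues, was counted in no D0 library. At D5 it had 9, 19 and 12 counts, or 0.358, 0.770 and 0.482 CPM. The D5 mean of 0.537 ± 0.212 CPM (SD, n = 3) was at least 7.13-fold higher than D0, taking 3 counts in each D0 library as the limit. The fitted log2 fold change of 7.13 ± 0.85 (SE) is no bound, as it depends on the small count added to libraries at 0. The 40 reads of *Gli2* in all are few, and absence at D0 means only that it was not detectable at this depth.

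Per length, the Gli factors together went from 65.7 ± 2.51 TPM at D0 to 14.7 ± 0.592 TPM at D5 (SD, n = 3). *Gli3* gave 98.9% ± 0.230 of this sum at D0 and 91.7% ± 1.48 at D5. *Gli1* gave 1.12% ± 0.230 and 6.67% ± 1.02, and *Gli2* 0% and 1.66% ± 0.683. *Gli3* thus remained the leading Gli transcript of myotubes, with a smaller share in every D5 library than in any D0 library.

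The order of the 9 genes by TPM at D0 was *Cdon* (276 ± 10.98), *Gas1* (100 ± 2.60), *Gli3* (65.0 ± 2.63), *Smo* (61.2 ± 2.05), *Hhip* (8.61 ± 0.295), *Ptch1* (4.84 ± 0.173), *Boc* (2.17 ± 0.228), *Gli1* (0.730 ± 0.125) and *Gli2* (0). Of these neighbours, *Gli3* and *Smo* overlapped between libraries. At D5 the order was *Gas1* (320 ± 14.1), *Cdon* (182 ± 3.95), *Smo* (28.1 ± 0.804), *Gli3* (13.5 ± 0.611), *Ptch1* (3.74 ± 0.278), *Boc* (3.68 ± 0.415), *Gli1* (0.981 ± 0.166), *Gli2* (0.242 ± 0.0911) and *Hhip* (0.0278 ± 0.0482). Here *Ptch1* and *Boc* overlapped. With the longest transcript in place of all exonic bases as length, *Smo* stood above *Gli3* at D0, at 71.8 against 60.1 TPM. *Hhip* therefore went from the fifth place to the last, and the places at the top were exchanged between *Cdon* and *Gas1*.

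Among genes that make and release the ligand, transcripts of the ligands themselves were near or at the limit of detection. *Shh* had 0 counts in all libraries, *Ihh* from 2 to 7 and *Dhh* from 1 to 3, and none entered the test. Of 10 genes in this list 4 were tested, of which 3 rose and 1 fell. Of all genes tested 42.2% rose and 40.8% fell, the background for this and the following lists. The rises of *Hhatl* and *Disp2* are partly set by the filter on low counts, which both passed only through D5, so no median is given. *Hhat*, the acyltransferase of the ligand, rose by 0.88 on the log2 scale (adjusted p = 7.5e-09, edgeR's quasi-likelihood test), from 4.11 ± 0.460 to 7.58 ± 0.506 CPM (SD, n = 3). *Disp2*, a relative of the releasing protein Disp1, rose by 3.08 from 9, 2 and 11 counts to 38, 32 and 48, while *Disp1* itself fell by 0.59. *Hhatl*, a relative of Hhat found in muscle, had 2, 2 and 1 counts at D0 and 15, 13 and 26 at D5, at least 9.60-fold higher. *Scube1*, *Scube2* and *Scube3*, whose products help release, had at most 6 counts in any library. With ERCC scaling 2 genes of the list rose, *Hhatl* and *Disp2*, and 0 fell. *Hhat* and *Disp1* then kept their direction without a call, at log2 fold changes of 0.28 and -1.17.

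Of 7 other genes for proteins that bind the ligand or its receptors at the surface, 3 were tested, 1 rose and 2 fell (with ERCC scaling 0 rose and 2 fell). *Hhipl1*, a gene related to *Hhip*, fell by 4.31 on the log2 scale (adjusted p = 3.5e-34, edgeR's quasi-likelihood test). Its level went from 164 ± 3.48 to 8.24 ± 0.416 CPM (SD, n = 3), above *Hhip* in both groups on this scale. *Lrp2*, a large endocytic receptor, fell by 1.21 from 31, 31 and 35 counts to 7, 12 and 7, with 1 D5 library past the limit of the filter.

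All 21 transducers behind Smo were tested, 11 rose (52.4%, against 42.2% of all genes) and 10 fell (47.6%, against 40.8%), with a median of 0.18. The kinase genes *Ulk3* (1.43) and *Stk36* (1.23) and the arrestin *Arrb1* (1.14) had the largest rises, and *Efcab7* (-1.12), *Gpr161* (-0.76) and the arrestin *Arrb2* (-0.71) the largest falls, given as log2 fold changes. *Gpr161*, a receptor that keeps the pathway off at the cilium, went from 29.6 ± 0.625 to 17.5 ± 1.14 CPM (SD, n = 3, adjusted p = 1.5e-13, edgeR's quasi-likelihood test). *Stk36* went from 14.4 ± 0.465 to 33.8 ± 1.93 CPM (adjusted p = 8.6e-19, the same test). With ERCC scaling, which moved the median of all genes to -0.58, 0 rose and 4 fell in this list, and 4 of the 21 genes changed sign. Relative to the median gene no log2 fold change of the list moved by more than 0.029.

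Of 27 genes of the primary cilium, where the pathway is read, 8 rose, 15 fell and 4 did not pass the test, with a median of -0.18. *Cep290*, which builds the gate at the base of the cilium, fell by 1.27 on the log2 scale, from 91.3 ± 3.83 to 37.8 ± 1.29 CPM (SD, n = 3, adjusted p = 4.4e-22, edgeR's quasi-likelihood test). *Tulp3*, an adaptor that carries receptors such as Gpr161 into the cilium, fell by 0.70. *Bbs2*, a subunit of the BBSome coat, rose by 1.27, from 9.83 ± 0.190 to 23.7 ± 0.614 CPM. *Ofd1* (-0.58), *Fuz* (0.90) and *Rpgrip1l* (0.77) were the others with the largest falls and rises. With ERCC scaling 0 rose and 2 fell, and 6 of the 27 changed sign, while no value moved by more than 0.073 relative to the median gene.

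Of 13 genes listed as Gli targets in some tissue outside the 9, 10 were tested, 3 rose and 7 fell, with a median of -1.11. The largest falls were those of *Foxm1* (-4.79), *Ccne1* (-3.89) and *Myf5* (-2.32), given as log2 fold changes. Foxm1 and cyclin E1 act in the cell cycle and *Myf5* is a myoblast gene, so these lists cross the proliferation and myoblast markers above, which fell as well. *Foxf1*, a forkhead factor of mesenchyme, had 0, 0 and 1 counts at D0 and 83, 84 and 74 at D5, at least 42.9-fold higher. It passed the filter only through D5, so its rise is partly set by the filter. *Snai1*, a repressor of epithelial genes, rose by 0.79, and *Bcl2* by 0.28, which turned to -0.27 with ERCC scaling. With that scaling 1 rose and 6 fell.

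Of 9 partners of Cdon and Boc at cell contacts, 1 rose, 7 fell and 1 did not pass the test, with a median of -0.37. *Abl1*, a kinase that binds Cdon, fell by 1.17 on the log2 scale, from 213 ± 2.11 to 94.5 ± 4.33 CPM (SD, n = 3, adjusted p = 3.0e-23, edgeR's quasi-likelihood test). *Cdh15*, M-cadherin, fell by 0.62, from 363 ± 1.24 to 237 ± 5.02 CPM. *Spag9*, a scaffold of p38 signaling, fell by 0.44. *Ctnnb1*, beta-catenin, rose by 0.14, which turned to -0.42 with ERCC scaling, where 0 of the list rose and 1 fell.

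Of 8 zinc finger genes related to the Gli genes, 6 were tested, 1 rose, 2 fell and 3 did not pass the test, with a median of -0.30. *Glis2*, a repressor linked to cilia, rose by 1.22, from 25.1 ± 0.633 to 58.4 ± 1.99 CPM (SD, n = 3, adjusted p = 5.0e-21, edgeR's quasi-likelihood test). *Glis3*, a factor of pancreas and kidney, fell by 1.14 and *Zic1*, a factor of neural and somite patterning, by 0.76, and with ERCC scaling 0 rose and 2 fell. Over all these lists, each gene once, 94 genes gave 80 that were tested, of which 28 rose (35%, against 42.2% of all genes), 44 fell (55%, against 40.8%) and 8 did not pass, with a median of -0.19. For *Foxf1*, whose D0 libraries were all at or under 3 counts, taking the lower bound in place of the fitted value left the median of the Gli target list as given.

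**Figure D4:**
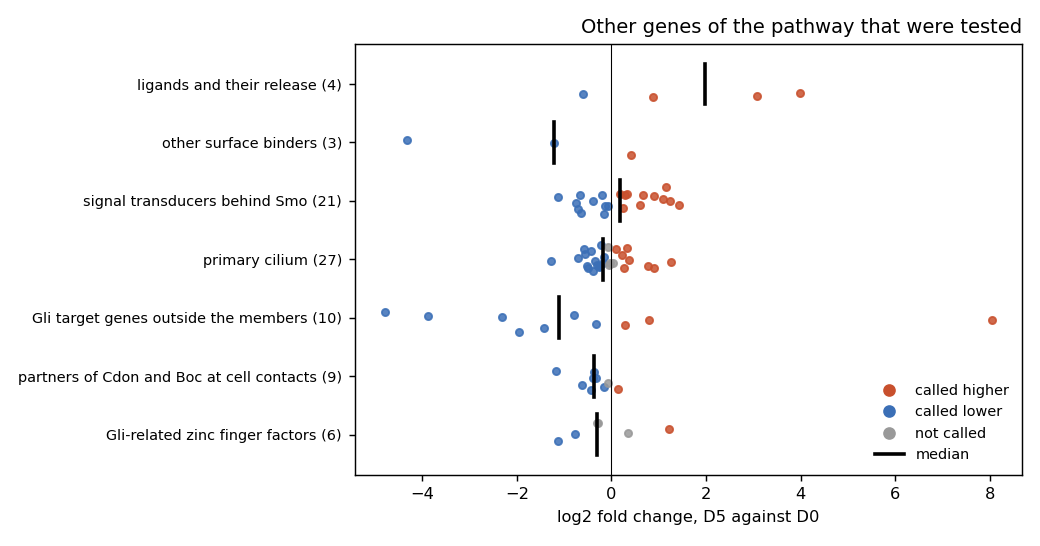
Log2 fold change, D5 against D0, of each tested gene in 7 lists of the pathway (number tested in parentheses), colored by whether edgeR's test called it higher, lower or neither, with a bar at the list median. The transducers and cilium genes lie on both sides of 0, and *Foxf1* is the gene at the far right. The bar of the ligand list rests partly on *Hhatl* and *Disp2*, which passed the filter on low counts only through D5.

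The 7 genes detected in all libraries kept their order of change under every setting tried, and ERCC scaling moved them all down together. The spike-ins took 0.726% to 0.859% of counts at D0 and 0.720%, 1.20% and 2.09% in the D5 libraries, so this scaling adds a wide spread within D5. Relative to the median gene under that scaling, the log2 fold changes were -2.12 for *Gli3*, -0.96 for *Smo*, -0.42 for *Cdon*, -0.24 for *Ptch1*, 0.55 for *Gli1*, 0.90 for *Boc* and 1.83 for *Gas1*. With 1 library left out the log2 fold change of *Gas1* ran from 1.80 to 1.86, that of *Gli3* from -2.15 to -2.08 and that of *Gli1* from 0.44 to 0.72.

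**Figure D5:**
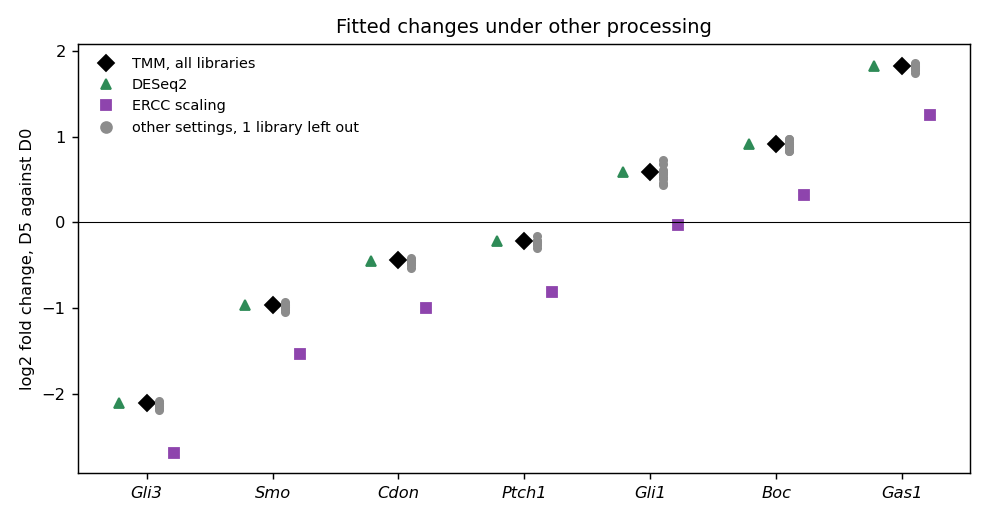
Log2 fold change, D5 against D0, of the 7 genes detected in all libraries under TMM factors (black), DESeq2 (green), ERCC scaling (purple) and all other settings, including each library left out (grey). *Gli1* is the gene whose points fall on both sides of 0.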

How the data were processed

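RNA was sequenced by the authors from C2C12 myoblasts (D0, n = 3) and myotubes (D5, n = 3). Reads were aligned to GRCm38 and the deposited values are raw gene counts from featureCounts, not normalized. As aligner, HISAT2 is named in the paper's methods and Tophat2 in the labels, and the annotation release, the strand setting and how multi-mapping reads were handled are not given in the sources used here. The 92 ERCC spike-in rows (0.720% to 2.09% of counts) and 1 row without a gene name, which equalled the column total, entered neither the library sizes nor the tests. Of 54525 gene rows, 99.8% matched a GENCODE vM21 identifier, the source of positions and exonic lengths for TPM.

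TMM factors, CPM and the quasi-likelihood test were computed from the counts with edgeR 4.0.16 in R 4.3.3, after filterByExpr on the 2 groups, with Benjamini-Hochberg adjustment over 16290 genes and a threshold of 0.05. Each standard error was derived from the log2 fold change and the F statistic (size of the change over the root of F). Replicates of a group differed by more than sampling noise, the chi-square over its degrees of freedom being 2.28 to 3.71. The limit of detection was set at 3 counts per library. The test was also run on simulated data in which far fewer genes changed than here. Its outcome is not given, and nothing on these data is read from it. Genes named are the 9 members, the ligand list, of every other list up to 3 with the largest rise and 3 with the largest fall past the threshold without overlap between groups, and the 5 genes nearest to *Hhip* in log2 CPM (prior count 2), while further genes of a list were named after their values were seen. Values of some listed genes are not reported here, though the counts and medians of lists include them. The members, the lists and the alternatives were chosen with earlier results of these data known. Alternatives were DESeq2 1.42.0, other scalings, other filters, the longest transcript as length, the replicate number as a block and each library left out.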

Additional observations from a re-analysis of the deposited data

How the results depend on the processing

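Scaling to the ERCC spike-ins changed the most. It left 5560 genes called, against 13510, and moved the median log2 fold change of all genes from 0.0022 to -0.58, with 67.4% of calls lower, against 49.2%. Of the 9 Hedgehog genes 3 were then called lower and 2 higher, and of the other pathway genes 17 lower and 3 higher. *Gli1* turned to -0.0284 on the log2 scale, and *Ptch1*, *Cdon* and *Boc* kept their direction without a call. The cause was not tested. Under the other settings genes called ran from 11494, with at least 10 counts required in every library, which left 7 of the 9 genes to test, to 15274 without a filter. Without 1 library they ran from 13236 to 13599, with 5 Hedgehog genes called lower and 3 to 4 higher, and with 41 to 45 other pathway genes lower and 28 to 30 higher. With the longest transcript as length the D0 shares were 73.5% for *Cdon* and 26.0% for *Gas1*. The labels do not say whether samples with the same replicate number in both groups were paired. Their deviations from the group means correlated at 0.0329, 0.0645 and 0.0277. These low values show no sign of pairing but cannot exclude it, since counting noise lowers them. A fit with the replicate block called 13558 genes and the same number of Hedgehog genes. Depth limits *Gli1*, *Gli2*, *Boc* and *Hhip* at D5.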

Other observations

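The tested genes nearest to *Hhip* on chromosome 8, looked up after its values were seen, did not share its loss. Genes that did not pass the filter on low counts were left out, so some may lie closer. Within the tested genes on its lower side, *Abce1*, a ribosome recycling factor 254 kb away, went from 211 ± 2.04 to 221 ± 3.18 CPM (SD, n = 3) and did not pass the test (adjusted p = 0.052, edgeR's quasi-likelihood test). *Anapc10*, a subunit of the anaphase-promoting complex 187 kb away, rose from 17.6 ± 0.834 to 23.95 ± 1.42 CPM (adjusted p = 4.0e-08, the same test). The nearest tested gene, *Gm5909*, lies on the upper side, 52.8 kb away. It rose from 1.305 ± 0.329 to 1.86 ± 0.1005 CPM (adjusted p = 0.021, the same test). Further on that side *Smarca5*, a chromatin remodeler 640.5 kb away, fell by 0.14 on the log2 scale, from 211 ± 3.89 to 191 ± 3.23 CPM. Of 6 neighbours tested, the log2 fold changes ran from -0.60 for *Gm45872* to 0.50 for *Gm5909*, both with under 2 CPM.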
